A study of Mus musculus with 10 samples.

Results

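Interferon-stimulated genes are the genes that cells switch on when they sense interferon, and 39 of them were followed here in the lungs of mice that drank arsenic. They were chosen by name as well-known interferon targets. The genes were found on the array through probe sets that the platform annotation pairs with a single gene symbol, and where a gene had several, the brightest on average was used. Of the 39 genes, 37 had such a probe set, out of 18194 genes on the array. Isg15, which encodes a ubiquitin-like protein, has only a probe set shared with Gm9706, and no probe set was paired with Ifi44, so neither has a value here. The lungs were those of 10 female mice of the inbred strain C57BL/6, with 1 animal per Affymetrix Mouse430_2 array. The arsenic group of 5 animals had 50 ppm of arsenic in drinking water for 12 weeks from an age of 8 weeks. The control group of 5 animals had deionized water without arsenic (0 ppm). The series names the compound arsenate and the treatment field of the samples arsenite, so the group is called arsenic. The sample titles carry a number that is shared within each group and differs between them. Its meaning is not given, so a cage or batch that it might mark cannot be told apart from the exposure.

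Interferons are secreted proteins that warn tissues of infection. Type I interferons bind a receptor made of IFNAR1 and IFNAR2, whose JAK kinases phosphorylate STAT2. This joins IRF9 in a complex called ISGF3, which binds the interferon-stimulated response element (ISRE) in target promoters. Interferon gamma acts at a different element, the gamma-activated site (GAS), and through the factor IRF1. In the lung, epithelial cells, endothelial cells and macrophages all express low levels of many of these genes without infection and raise them sharply after respiratory viruses.

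The ISRE core was common in the promoters of these genes. RefSeq promoter windows of 300 bases (GRCm38.p6, 250 bases before to 50 after each start site) were present for 29 of the 39 genes. The core searched was GAAA, any 2 bases and GAAA again, on both strands and with overlapping matches counted, and 16 of the 29 genes held it (55.2%), against 3.99% of 27025 genes in the table and 3.69% of the 9184 tested on the arrays. The GAS core TTCNNNGAA, which reads the same on both strands, was in 8 of the 29 (27.6%), against 9.55% of all genes in the table. In 7 of the 16 genes the core had the same letters on one strand or the other, GAAACTGAAA, which 0.263% of all genes in the table hold: Ifit1, Ifit3, Oas1a, Stat2, Gbp3, Igtp and Bst2. A match of these letters is a description of the window and not a measured binding site.

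The stretches below are shown because they belong to the 4 genes with the smallest p-values among those described by animal that hold the ISRE core. Capitals mark the core on either strand, each stretch reads 5′ to 3′ along the gene's strand, and the first transcribed base is position 0.
Eif2ak2 (chr17:78882545-78882694, minus strand, positions -122 to 27): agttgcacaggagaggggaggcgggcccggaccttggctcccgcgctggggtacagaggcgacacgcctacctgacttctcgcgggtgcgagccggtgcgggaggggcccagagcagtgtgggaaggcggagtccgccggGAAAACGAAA
Ifih1 (chr2:62646214-62646243, minus strand, positions 12 to 41): aaagtctggagaagagaatcGAAACAGAAA
Trim30a (chr7:104465194-104465343, minus strand, positions -150 to -1): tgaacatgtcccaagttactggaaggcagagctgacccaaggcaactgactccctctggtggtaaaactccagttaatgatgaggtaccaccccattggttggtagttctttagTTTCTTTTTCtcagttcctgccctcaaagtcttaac
Ifit3 (chr19:34583379-34583528, plus strand, positions -150 to -1): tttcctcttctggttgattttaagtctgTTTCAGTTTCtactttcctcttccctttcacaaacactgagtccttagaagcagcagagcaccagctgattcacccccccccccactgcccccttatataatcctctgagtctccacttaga
In Eif2ak2 and Ifih1 the core lay after the start site, and in Trim30a and Ifit3 before it. Trim30a has another start site in the table, with a core after it. Ifit3 has a second match, which starts at position -156 and ends within the first bases of the stretch, where it is not marked. Among the 15 genes with a core in the window and a value on the arrays, log2 differences between arsenic and control ran from -0.81 to 0.29, with 10 negative and 5 positive. The 12 genes with a value whose window lacked the core ran from -0.56 to 0.19, with 5 negative and 7 positive, so the ranges overlapped.

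No interferon-stimulated gene passed the test for a difference between arsenic and control lungs. Values are log2 expression as deposited, and a gene was tested if its probe set lay above 4.20, the table's median value, in 5 or more lungs. That held for 33 of the 37 genes, each of which was above it on all 10 arrays. With limma and Benjamini-Hochberg adjustment over 11333 genes, 0 of the 33 passed an adjusted p of 0.05, where 0.476% of all genes tested did (54 genes). The smallest adjusted p was 0.204, that of Eif2ak2. At an unadjusted p of 0.05 there were 3 of the 33, all with a lower mean in arsenic lungs, against 15.7% of all genes tested, 5.13% lower and 10.6% higher. In 0 of the 33 did the groups fail to overlap, against 3.63% of all genes tested, 2.82% with arsenic higher and 0.803% with arsenic lower. The log2 differences ran from -0.81 to 0.29, with 17 positive and 16 negative and a median of 0.02, beside a median of 0.06 and 63.2% positive over all genes tested. The 95% interval of the difference lay within 1 log2 unit (2-fold) either way in 31 of the 33 genes, the exceptions being Eif2ak2 and Ifih1, and within 0.5 log2 units in 11. The number of arrays limits this precision. In whole lung, fewer cells of a type and less RNA per cell cannot be told apart.

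**Figure D1:**
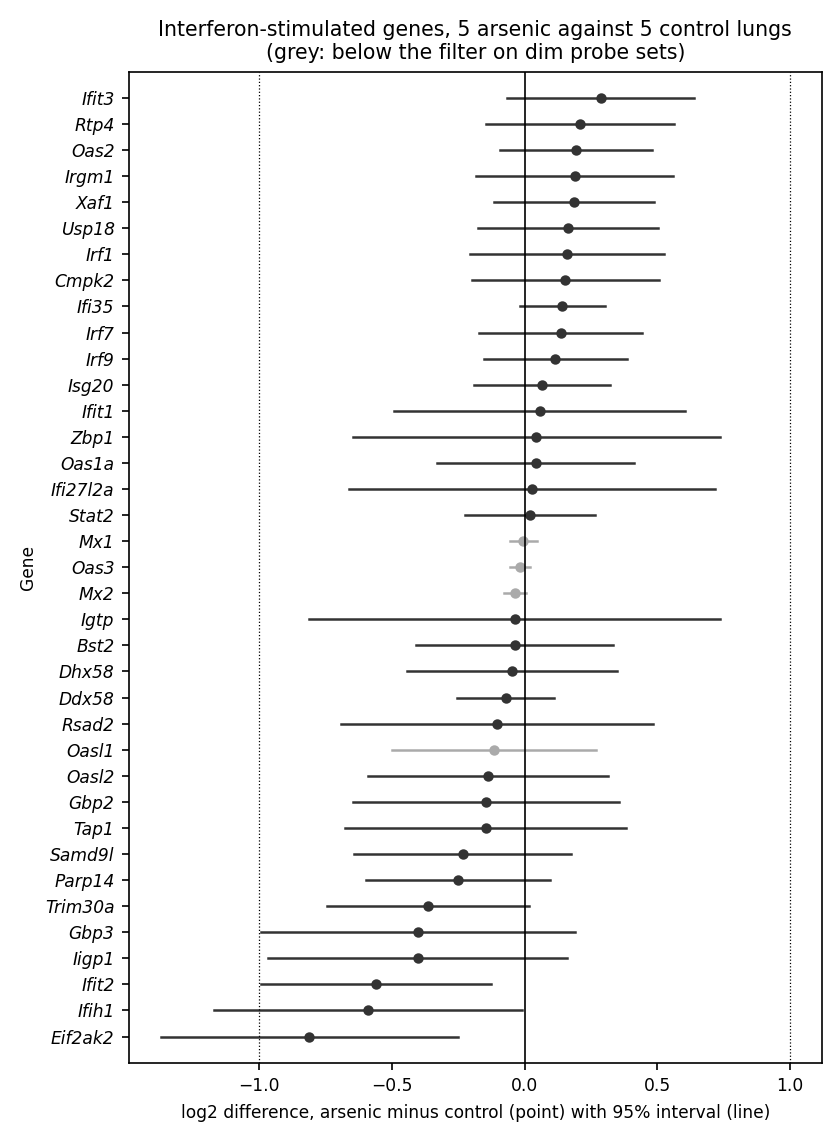
Log2 difference (arsenic minus control, horizontal axis) of the 37 interferon-stimulated genes with a value, with points for the estimate and lines for limma's 95% interval; dotted lines mark 1 log2 unit. All points lie between -0.81 and 0.29, and the intervals of Eif2ak2 and Ifih1 alone cross -1.

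The 10 arrays had close distributions, with medians of 4.11 to 4.26, and correlated over probe sets at 0.990 to 0.997. Lung markers were high in every animal. The mean of 6 alveolar type 2 markers, such as Sftpc, was 14.4 to 14.6. That of 4 club-cell markers was 15.5 to 15.8. Kidney tubule transcripts also passed the filter, with values given below.

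Of the 5 cytosolic nucleic acid sensors, 4 had negative differences and 1 a positive one, with a median of -0.07 and none past the test. Eif2ak2 encodes the kinase PKR, which halts translation when it binds double-stranded RNA. In control animals 1 to 5 it was at 7.36, 6.58, 7.25, 7.24 and 6.56, and in arsenic animals 1 to 5 at 6.75, 5.53, 6.55, 6.30 and 5.79. Arsenic animals 2, 3, 4 and 5 lay below every control, while arsenic animal 1 lay within the control range. The means were 6.996 ± 0.39 and 6.18 ± 0.51 (SD, n = 5 each), a log2 difference of -0.81 (SE 0.25, limma adjusted p = 0.204), or a 1.76-fold lower mean. A second probe set past the filter gave -0.52, from 6.02 ± 0.53 to 5.50 ± 0.22.

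Ifih1 encodes MDA5, the cytosolic sensor of long double-stranded RNA. Its controls were at 7.92, 7.78, 8.59, 8.41 and 7.56 and its arsenic lungs at 7.86, 6.60, 7.51, 7.78 and 7.57. Arsenic animal 2 was far below all others, and of the remaining 4 all but animal 3 lay inside the control range. The log2 difference was -0.59 (95% interval -1.17 to -0.01, limma adjusted p = 0.309), and -0.37 without arsenic replicate 2. Ddx58 encodes RIG-I, the sensor of RNA ends with a triphosphate, and Dhx58 encodes LGP2, which modulates both. Ddx58 was at 8.68 ± 0.13 in controls and 8.61 ± 0.10 with arsenic (difference -0.07, interval -0.25 to 0.11), one of the narrowest intervals of the set. Dhx58 was at 5.36 ± 0.19 and 5.31 ± 0.40 (difference -0.05). Zbp1, a sensor of Z-form nucleic acids that can trigger necroptosis, ran from 6.41 to 7.77 in controls and from 6.19 to 7.55 with arsenic. Both groups of Zbp1 spanned more than 1 log2 unit and overlapped widely (difference 0.04, interval -0.65 to 0.74).

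The IFIT proteins bind foreign RNA at its cap or end and block its translation, and their differences were of both signs. Ifit2 was at 7.81, 7.85, 8.15, 8.51 and 7.93 in control animals 1 to 5 and at 8.07, 7.08, 7.30, 7.71 and 7.30 in arsenic animals 1 to 5. All arsenic lungs but that of animal 1 lay below the lowest control. The means of 8.05 ± 0.29 and 7.49 ± 0.40 gave a log2 difference of -0.56 (SE 0.20, limma adjusted p = 0.235), or a 1.47-fold lower mean. Ifit3 had values of 9.51, 9.87, 9.91, 10.30 and 9.94 in controls and 10.32, 10.05, 10.41, 9.78 and 10.40 with arsenic. Arsenic animals 1, 3 and 5 exceeded the highest control, and animals 2 and 4 lay inside the control range. The difference was 0.29 (SE 0.16, limma adjusted p = 0.400), the highest of the set. Ifit1 showed narrow controls, 7.26, 7.01, 6.97, 7.25 and 7.36, and widely spread arsenic lungs, 7.48, 6.81, 8.05, 6.48 and 7.31. Arsenic animals 1 and 3 lay above all controls and animals 2 and 4 below all of them, so that the means hardly differed (7.17 ± 0.17 and 7.23 ± 0.61). The difference was 0.06, and -0.15 without arsenic replicate 3.

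**Figure D2:**
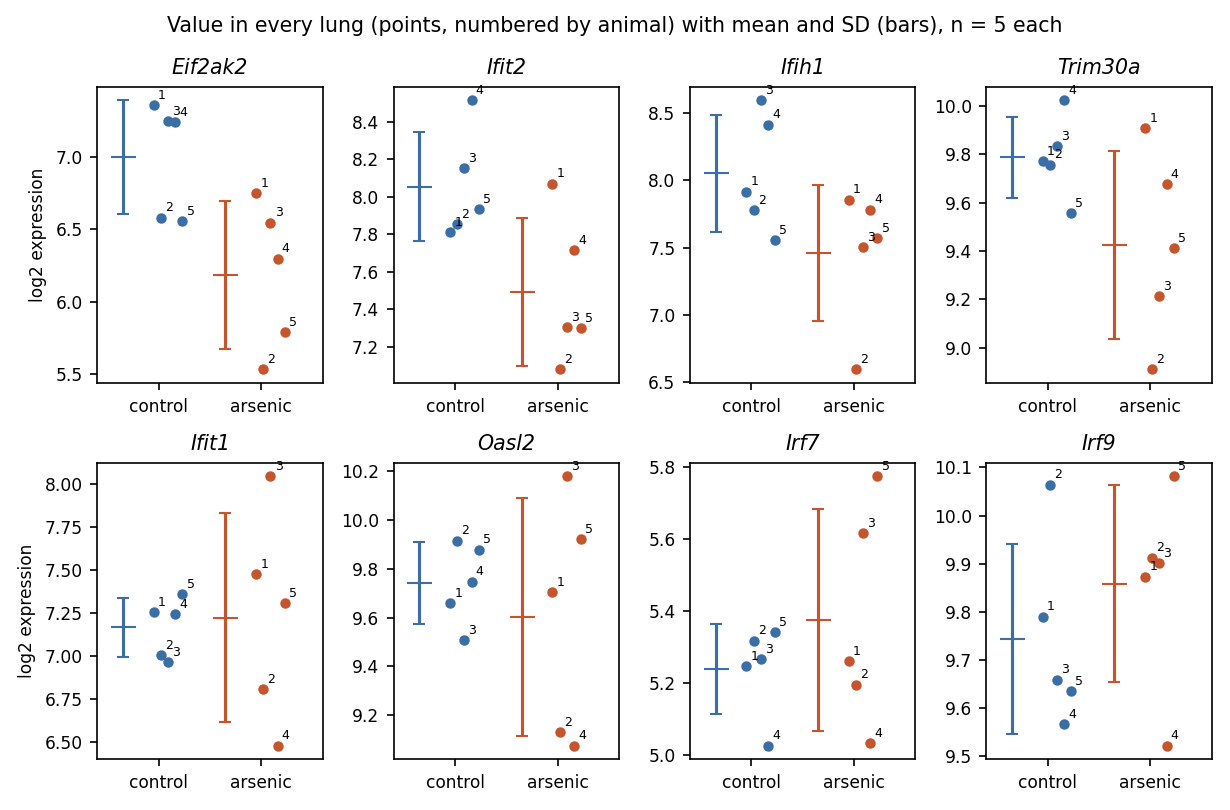
Log2 expression (vertical axis) of 8 interferon-stimulated genes in each lung, with points numbered by animal and bars for mean and SD (n = 5 each). In the top row arsenic animal 2 is the lowest lung of all 10, and in Ifit1, Oasl2 and Irf7 arsenic animals 2 and 4 are the lowest of their group.

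Other effectors of the type I response had differences between -0.14 and 0.19. Usp18, which strips ISG15 from proteins and blocks the IFNAR receptor, was at 10.17 ± 0.28 in controls and 10.34 ± 0.24 with arsenic (difference 0.16). The OAS enzymes make oligoadenylates that activate RNase L, an RNA-degrading enzyme. Oas1a was at 8.07 ± 0.26 and 8.11 ± 0.32. For Oas2 the controls were at 5.30, 5.48, 4.96, 5.28 and 4.97 and the arsenic lungs at 5.30, 5.31, 5.32, 5.28 and 5.76, where 4 arsenic lungs lay together inside the control range and animal 5 alone lay above it (difference 0.19, limma adjusted p = 0.468; 0.10 without arsenic replicate 5). Oasl2, an OAS-like protein, ran from 9.51 to 9.92 in controls and from 9.08 to 10.18 with arsenic, animals 2 and 4 below all controls and animals 3 and 5 at or above the highest. The remaining OAS genes, Oas3 and Oasl1, and the dynamin-like antiviral GTPases Mx1 and Mx2 were below the filter on all 10 arrays, with group means between 2.20 and 3.70. They were not tested over all genes, and GCRMA compresses such dim values. C57BL/6 mice, like most laboratory strains, carry a disrupted Mx1 gene.

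The transcription factors of the pathway had positive differences of 0.02 to 0.16, none past the test. Stat2, a subunit of ISGF3, was at 7.63, 7.94, 7.79, 7.39 and 7.52 in controls and 7.76, 7.62, 7.66, 7.50 and 7.83 with arsenic, with every arsenic lung inside the control range (difference 0.02). The sign of Stat2 turned when control 4 or 5 or arsenic 1 or 5 was left out, to -0.046 at the lowest. A second, dimmer probe set of Stat2 gave 0.38, from 6.08 ± 0.34 to 6.46 ± 0.25, the widest gap of the set among probe sets past the filter. Irf9, the DNA-binding subunit of ISGF3, had 9.79, 10.06, 9.66, 9.57 and 9.64 in controls and 9.87, 9.91, 9.90, 9.52 and 10.08 with arsenic (difference 0.12, interval -0.15 to 0.38). Irf7, which drives the second wave of interferon alpha, had 5.25, 5.32, 5.27, 5.03 and 5.34 and 5.26, 5.19, 5.62, 5.03 and 5.77. Arsenic animals 3 and 5 exceeded all controls of Irf7, and its SD was 0.13 in controls and 0.31 with arsenic (difference 0.14). Irf1, the main relay of interferon gamma, was at 9.82, 10.31, 10.01, 9.43 and 9.63 in controls and 10.13, 10.15, 9.80, 9.72 and 10.20 with arsenic, all inside the control range (difference 0.16, limma adjusted p = 0.637). Leaving out 1 animal lowered Irf7 to 0.037 and Irf9 to 0.059 (without arsenic replicate 5) and Irf1 to 0.059 (without control replicate 4).

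Guanylate-binding proteins and immunity-related GTPases, which attack the vacuoles of intracellular microbes and are strongly induced by interferon gamma, had 4 negative differences and 1 positive. Gbp3 had control values of 7.65, 7.72, 7.72, 7.81 and 6.96 and arsenic values of 7.68, 6.22, 7.53, 6.996 and 7.42. Control animal 5 and arsenic animals 2 and 4 were low and the other lungs lay between 7.42 and 7.81 (difference -0.40, limma adjusted p = 0.468; -0.17 without arsenic replicate 2). Iigp1 was at 8.73, 9.40, 9.42, 9.16 and 8.30 in controls and 9.06, 7.89, 8.71, 8.55 and 8.80 with arsenic, again lowest in arsenic animal 2 (difference -0.40, limma adjusted p = 0.448). It was -0.22 without arsenic replicate 2. Its other probe set gave -0.56. Gbp2 differed by -0.15, Igtp by -0.04 and Irgm1 by 0.19. Igtp had the widest control group of the set, from 9.54 in animal 5 to 11.42 in animal 2. Tap1, the peptide transporter that loads MHC class I, was likewise highest in control animal 2, at 9.42, with a mean of 8.66 ± 0.53 in controls and 8.51 ± 0.30 with arsenic.

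Among the remaining antiviral effectors, Trim30a, a TRIM protein that damps Toll-like receptor signalling, had the lowest difference. Its controls were at 9.77, 9.76, 9.83, 10.02 and 9.56 and its arsenic lungs at 9.91, 8.91, 9.21, 9.68 and 9.41, where animals 2, 3 and 5 lay below every control (difference -0.36, SE 0.17, limma adjusted p = 0.337). A second probe set gave -0.39. Samd9l, which restricts poxviruses, differed by -0.23, and Rsad2, the radical-SAM enzyme viperin that makes a chain-terminating nucleotide, by -0.11. Cmpk2, the nucleotide kinase encoded beside Rsad2, differed by 0.15, the exonuclease Isg20 by 0.07 and Bst2, the tetherin that holds budding virions, by -0.04. The 95% interval of each of these 6 genes reached no further than -0.74 or 0.51.

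The other induced genes were close to the control. Ifi35 was at 13.33, 13.26, 13.03, 13.19 and 13.27 in controls and 13.32, 13.41, 13.35, 13.29 and 13.41 with arsenic, with arsenic animals 2, 3 and 5 above every control (difference 0.14, limma adjusted p = 0.369). Its 2 other probe sets past the filter gave 0.14 and 0.09. Xaf1, a pro-apoptotic factor, had 9.92, 10.39, 9.94, 10.18 and 10.09 in controls and 10.48, 10.05, 10.30, 10.01 and 10.62 with arsenic, animals 1 and 5 above all controls (difference 0.19). Rtp4, a chaperone of receptors, had 9.81, 10.29, 9.80, 9.88 and 10.02 and 10.37, 9.85, 10.36, 9.77 and 10.49, animals 1, 3 and 5 above all controls (difference 0.21, limma adjusted p = 0.527). Parp14, an ADP-ribosyltransferase, had 7.70, 7.68, 8.12, 8.22 and 7.39 in controls and 7.75, 7.40, 7.37, 7.69 and 7.65 with arsenic, animal 3 alone below all controls (difference -0.25, limma adjusted p = 0.442). Ifi27l2a had the highest SD among arsenic lungs, 0.62, and ran from 11.26 to 12.77, beside controls of 11.17 to 12.39 (difference 0.03). Over the whole set, 12 genes had further probe sets above the filter, 14 in all, and each of the 14 had the sign of the one used.

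Many of the interferon-stimulated genes, though not all, varied together between animals of the arsenic group. The median SD within groups, both groups pooled, was 0.29 for the 33 genes tested, against 0.19 over all genes tested. It was 0.28 against 0.18 in controls and 0.32 against 0.18 in arsenic lungs. The SD was larger in arsenic than in control lungs in 19 of the 33 (57.6%), and in 50.5% of all genes tested. Arsenic animals 2 and 4 were the lowest pair of their group in 19 of the 33 genes (57.6%), which held for 5.28% of all genes tested. This pair was singled out after the values were seen, so the 2 shares are a description and not a test. No other pair of arsenic animals was lowest in more than 4 of the 33. The most frequent control pair, animals 1 and 5, was lowest in 7 (21.2%), which held for 6.33% of all genes tested. The 19 genes span the groups above: Ifit1, Ifit3, Oas1a, Oasl2, Irf7, Stat2, Ddx58, Dhx58, Zbp1, Gbp2, Gbp3, Iigp1, Igtp, Irgm1, Cmpk2, Tap1, Xaf1, Ifi27l2a and Rtp4. Genes outside the 19 had other orders. Arsenic animal 4 was the highest of its group in Samd9l, at 8.80. It was below arsenic animal 1 alone in Ifit2, Ifih1, Trim30a, Rsad2 and Parp14, at 7.71, 7.78, 9.68, 8.36 and 7.69. Averaged over the 33 genes as deviations from each gene's 10-array mean, arsenic animals 1 to 5 stood at 0.14, -0.34, 0.15, -0.24 and 0.12, and control animals 1 to 5 at 0.01, 0.20, 0.03, 0.08 and -0.16. Arsenic animals 1, 3 and 5 thus lay within the control range and animals 2 and 4 below it, with an SD of 0.24 in the arsenic group and 0.13 in the control group. Control animal 2 was the highest control in 15 of the 33 genes (45.5%), and in 27.9% of all genes tested. Control animal 5 was the lowest control in 13 of the 33 (39.4%), and in 18.3% of all genes tested. Arsenic animal 4 was the lowest of its group in 16 of the 33 (48.5%) and in 30.5% of all genes tested, the most of any arsenic animal. Arsenic animal 2 was lowest in 14 (42.4%) and in 17.5% of all genes tested.

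**Figure D3:**
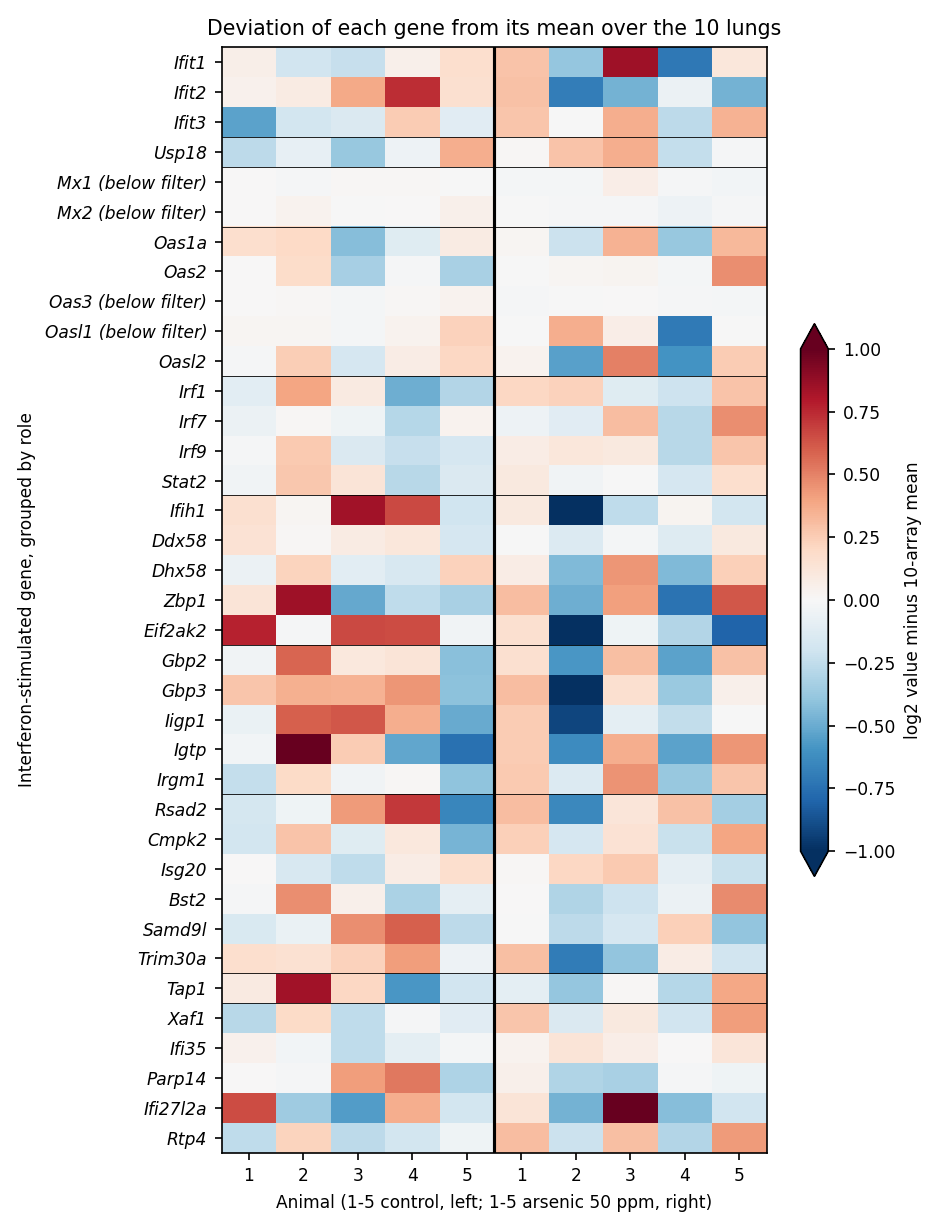
Deviation of each gene (rows, grouped by role) from its mean over the 10 lungs (columns, 5 control and 5 arsenic animals), with red above and blue below and colours capped at 1 log2 unit. Arsenic animals 2 and 4 are mostly blue and animals 1, 3 and 5 mostly red, while controls 3 and 4 are red for Ifih1, Eif2ak2, Ifit2, Rsad2 and Samd9l and control 2 for Igtp, Zbp1 and Tap1.

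Markers of other cells were set beside this pattern. The mean of 7 monocyte and interstitial macrophage markers was 8.71, 8.56, 8.84, 8.45 and 8.81 in arsenic animals 1 to 5, lowest in the same animals 2 and 4, and 8.50 to 8.79 in controls. Not every list had this order. That of 7 alveolar macrophage markers was 10.87, 10.99, 11.25, 10.71 and 10.81 in arsenic animals 1 to 5, and 10.52 to 11.01 in controls. Among arsenic animals, the endothelial and B-cell lists were highest in animal 4, at 11.77 (11.76 in animal 5) and 6.91. Their controls ran from 11.39 to 11.74 and from 6.51 to 7.31. The mean of 6 NK-cell markers was 4.40, 3.89, 4.05, 3.94 and 4.54 in arsenic animals 1 to 5. It too was lowest in arsenic animals 2 and 4, and it was 3.82 to 4.10 in controls. Only Gzma of these 6 passed the filter, and Ncr1 and Eomes, which define NK cells, were below it. Of 7 plasmacytoid dendritic cell markers, the defining Siglech and Ccr9 were below the filter, and the list's mean was 5.80 to 6.09 with arsenic and 5.89 to 6.08 in controls. The markers of this list that passed the filter went both ways. Tcf4 differed by -0.78, and Klk1, Ly6d and Cox6a2 by 0.18, 0.13 and 0.26. The mean of 15 kidney tubule transcripts, of which 10 passed the filter, was 6.29, 5.90, 6.11, 7.39 and 5.62 in arsenic animals 1 to 5, highest in animal 4, and 4.44 to 6.47 in controls. The group means of this list were 5.44 ± 0.73 in controls and 6.26 ± 0.68 with arsenic (SD), a log2 difference of 0.82. Its largest differences were those of Kap (2.78), Umod (2.26) and Slc27a2 (1.82). Lrp2 and Slc12a3 had negative differences, of -0.04 and -0.02. Over 12 marker lists, the two-sided exact permutation p of arsenic against control ran from 0.103 (kidney) to 0.897 (T cells), and was at least 0.590 after adjustment over the lists; the smallest p possible was 0.00794, so no list differing alone could have passed 0.05 after adjustment. The part of these cells and transcripts in the pattern was not tested.

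**Figure D4:**
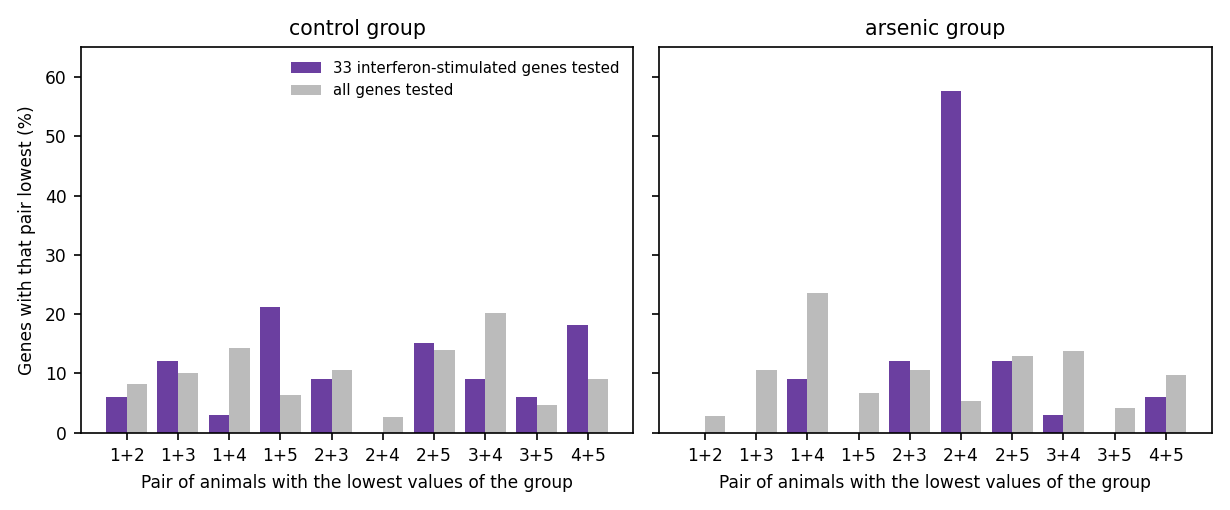
Share of genes (vertical axis, %) for which each pair of animals (horizontal axis) had the lowest values of its group, for the 33 interferon-stimulated genes tested (purple) and all 11333 genes tested (grey), with controls left and arsenic right. Arsenic animals 2 and 4, a pair singled out after the values were seen, stand out at 57.6% against 5.28%.

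The rest of the pathway gave no called gene either. Of 44 further interferon-induced genes tested out of 63 listed, 0 passed the limma adjusted p of 0.05 and 3 had an unadjusted p under 0.05. These were Slfn2, a schlafen protein of immune cell quiescence (difference 0.45), Tor3a (0.22) and, downward, Epsti1 (-0.25); Sp100 of nuclear bodies had -0.23. All genes tested had 15.7% at that unadjusted p, so the 3 of 44 lie below the background. The median difference of the 44 was -0.01, with 21 positive. Arsenic animals 2 and 4 were the lowest pair of their group in 20 of these 44 genes as well (45.5%), among them the immunoproteasome genes Psmb8 and Psmb9, the MHC class I genes H2-K1, H2-D1 and B2m, the transactivator Nlrc5, and Ifitm3. These 7 examples were picked after their values were seen.

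Interferon genes themselves were dim. Of 19 listed, 10 had a probe set of their own and 1 passed the filter, Ifna2, with a difference of -0.04, a sign that turned with quantile normalization or median centring. Of 9 receptor and kinase genes tested, 0 passed the limma adjusted p of 0.05 and 0 had an unadjusted p under 0.05. The kinase Jak2 had a difference of -0.33, the gamma receptor chain Ifngr1 0.16, Jak1 -0.14 and Tyk2 0.11. Of 8 genes that restrain the pathway, 0 passed the limma adjusted p and 1 had an unadjusted p under 0.05, where 15.7% of all genes tested did. This was Irf2, a repressor that competes with Irf1 at the same element. Its controls were at 8.87, 9.005, 8.98, 8.75 and 8.94 and its arsenic lungs at 9.001, 9.12, 9.22, 9.14 and 9.26, where all but animal 1 exceeded every control (difference 0.24, limma adjusted p = 0.214). The SUMO ligase Pias4 had 0.25, the feedback inhibitor Socs3 0.32 and the phosphatase Ptpn2 0.14. Socs3 was at 0.17 without arsenic replicate 2 and 0.12 with array weights, and Ptpn2 at 0.0065 with the kidney list's mean as covariate.

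Upstream of interferon, 0 of 11 sensing and relay genes passed the limma adjusted p of 0.05 and 2 had an unadjusted p under 0.05, a share near the 15.7% of all genes tested. Tlr3, the endosomal receptor of double-stranded RNA, was at 7.55, 7.61, 8.002, 8.16 and 7.72 in control animals 1 to 5 and at 7.55, 6.59, 7.34, 7.48 and 7.11 in arsenic animals 1 to 5. The groups did not overlap, by a margin below the second decimal between control animal 1 and arsenic animal 1, where 0.803% of all genes tested had arsenic wholly below control. Its log2 difference was -0.59 (SE 0.19, limma adjusted p = 0.205). Tlr3 was at -0.46 with the mean of all its probe sets and at -0.44 with array weights. Its adaptor Ticam1 had a difference of the opposite sign, 0.41 (limma adjusted p = 0.310). Irf8, a factor of myeloid and dendritic cells, had -0.25 and Tlr7, the endosomal receptor of single-stranded RNA, 0.30. Irf8 was at -0.15 with the mean of all its probe sets and at -0.32 with array weights. In these 11 genes arsenic animals 2 and 4 were the lowest pair in 1, in the 9 receptor and kinase genes in 1 and in the 8 restraining genes in 0.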

How the data were processed

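Lung RNA of 10 mice was hybridised to 1 array each, 5 control and 5 arsenic. The authors deposited log2 values per probe set, made with GCRMA per the submitters' processing notes, which name no version or filter. The log2 scale was read from the range of values, 0.619 to 16.3. Of 45101 probe sets, 34958 carry 1 gene symbol in the platform annotation, 932 several and 9211 are not listed. Each gene was represented by its probe set with the highest mean, and was tested if that exceeded the median of the table, 4.20, on at least 5 arrays (11333 genes). Arsenic was compared with control with limma 3.58.1 (R 4.3.3; a linear model with moderated variances) and Benjamini-Hochberg adjustment over all genes tested and a threshold of 0.05; the script was tested on simulated data. Marker lists were compared by their mean with an exact permutation test over the 252 splits of the animals (two-sided, adjusted over 12 lists). Each animal is a separate sample, so limma's p-values set the group difference against the spread between animals within groups, moderated over all genes. A cage or batch shared by a whole group would not be part of that spread. Promoters came from RefSeq (GRCm38.p6), with entries for 29 of 39 genes and none for Mx1, Mx2, Oas2, Usp18, Zbp1, Dhx58, Parp14, Ifi27l2a, Iigp1 and Rtp4. Values are given by animal for the 12 genes tested with the smallest p and for Stat2, Irf9, Irf7, Irf1 and Ifit1; up to 4 genes of smallest p are named per pathway list. The genes and lists were chosen with earlier results of these data known. Alternatives covered the filter, normalization, probe sets, variance model, array weights, the replicate number as a block, a kidney covariate and leaving out animals. Figures were drawn with matplotlib 3.10.9.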

Additional observations from a re-analysis of the deposited data

Results flagged for a closer look

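In 66 groups of 5 animals (33 genes in each group), 3 genes had an animal set far apart from the rest of its group by Dixon's test, where chance flags about 1 in 20 groups. Oas2 was at 5.76 in arsenic animal 5, while the other arsenic lungs were between 5.28 and 5.32. Ifih1 was at 6.60 in arsenic animal 2, while the others were between 7.51 and 7.86. Gbp3 was at 6.96 in control animal 5, while the other controls were between 7.65 and 7.81.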

How the results depend on the processing

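In all 20 alternatives, 0 of the interferon-stimulated genes tested passed limma's adjusted p of 0.05. The smallest adjusted p among them ranged from 0.0621 to 0.418, and the count at an unadjusted p of 0.05 from 0 to 9. The count of all genes past the threshold, 54, was 19 without a filter, 11 without arsenic animal 4 and control animal 2 together, 6 with the kidney list's mean as covariate, and 9 to 41 when 1 animal was left out, lowest without arsenic animal 2. With the replicate block the count was 5, and the smallest limma adjusted p among the interferon-stimulated genes was that of Eif2ak2, 0.0621. Deviations of same-numbered animals from their group means correlated over genes at -0.33 to 0.25. The labels give no pairing, and whether the number marks a shared step was not tested. Alternatives were run for 34 single genes, the 17 given by animal and 17 of the pathway lists; other genes' differences were not recomputed. Of their 663 values, 654 kept their direction and 9 in 3 genes turned. Ifna2 gave 0.020 with quantile normalization and 0.021 with median centring, and -0.070 to 0.0076 when 1 animal was left out. Leaving out 1 animal gave -0.046 to 0.091 for Stat2 and -0.15 to 0.24 for Ifit1. The cause was not tested. Leaving out 1 animal also shrank the differences of Trim30a, Ifit3, Parp14, Xaf1, Rtp4, Jak1, Tyk2, Ptpn2, Tlr7, Ticam1 and Sp100 by over 1.5 times, with no change of sign. The filter at the 75th percentile tested 22 of the interferon-stimulated genes and dropped Eif2ak2. Genes near the floor of the arrays have compressed differences.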
